A study of Mus musculus with 6 samples.

Results

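The 10 transcription regulator genes described here set adipocyte and beige identity, and they were followed in inguinal white adipose tissue of cold-stimulated mice. They were Ppargc1a, Ppargc1b, Esrra, Esrrg, Ppara, Pparg, Prdm16, Ebf2, Cebpa and Cebpb, taken by symbol as 10 of the 17342 named genes in the deposited tables. The fat came from 8-week-old C57BL/6 mice, either wild type (WT) or Rarres2-/-, which lack a working gene for chemerin, an adipokine made by adipocytes. Each genotype had 3 RNA-seq libraries, numbered 1 to 3 for WT and 4 to 6 for Rarres2-/-, and all 6 are labelled as cold samples. The sources used here do not give the length or temperature of the cold, the deleted part of Rarres2 or any pooling of mice. The comparison asks whether the regulators of the adipocyte and beige programme differ in cold-stimulated fat without chemerin. Fat from mice kept warm was not analysed here. Nothing in the labels ties each library to a mouse of its own, so the spread behind each p-value is that between libraries and may be technical.

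Inguinal fat stores lipid in white adipocytes and in the cold gains beige adipocytes, which burn fuel for heat through the uncoupling protein Ucp1. C/EBPβ acts early in adipocyte formation and leads to C/EBPα and PPARγ, which sustain each other's expression in mature adipocytes. EBF2 and PRDM16 steer that machinery to brown and beige genes. The coactivators PGC-1α and PGC-1β bind PPARs and estrogen-related receptors (ERRs), and so switch on genes of mitochondria and fatty acid oxidation. Cold reaches this network through β-adrenergic receptors and cAMP, which raise transcription of Ppargc1a through the cAMP response element (CRE).

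Expression was measured as FPKM, fragments per kilobase of transcript scaled to the mapped total, so levels can be set side by side between genes. The tables hold no counts, but their lowest values cluster at what 1 fragment is worth, which put the depth at about 8.58 M fragments in WT replicate 1 and 11.6 to 16.7 M in the other 5 libraries (M, 1e6). Rarres2 ranged over 436 to 610 FPKM in the WT libraries, against 0.260 to 6.35 FPKM in those of Rarres2-/-, as the labels have it (log2 difference -7.51, adjusted p = 0.0597 by limma). White adipocyte markers were present in every library, with Adipoq at 2118 to 2809 FPKM. Of 4 classical brown fat markers, Zic1 was at most 0.104 FPKM. The others were expressed, Lhx8 at 1.17 to 2.62 FPKM, Epsti1 at 3.95 to 11.9 FPKM and Mpzl2 (Eva1) at 3.23 to 9.60 FPKM. WT replicate 1 and Rarres2-/- replicate 4 stood apart from the other 4 libraries in endothelial markers, and WT replicate 1 also in those of 4 other cell types. Summed over 6 endothelial markers the pair was at 200.2 and 125 FPKM, against 26.4 to 33.4 FPKM in the other 4, and both exceeded the others for 6 of 6 markers. The sum of 6 skeletal muscle markers was 1143 FPKM in WT replicate 1 and 134 to 385 FPKM elsewhere. Macrophage markers (7 genes) summed to 199 FPKM in WT replicate 1, 961 and 990 in the other WT libraries and 436 to 564 in Rarres2-/-, and adipose progenitor markers (6 genes) to 740, 3258 and 2612 in WT and 1424 to 1620 in Rarres2-/-. Schwann cell markers (3 genes) summed to 180.2 FPKM in WT replicate 1 and 12.3 to 62.0 FPKM elsewhere. T and B cell markers (7 genes) summed to 26.9 FPKM in WT replicate 3 and 14.1 FPKM in Rarres2-/- replicate 6, against 1.51 to 5.91 FPKM elsewhere. None of these markers was at 0 in all libraries. In bulk tissue fewer cells of a type and less RNA per cell cannot be told apart.

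The regulators spanned a 1239-fold range of mean level. Cebpa was the most abundant at 592 FPKM over the 6 libraries, followed by Cebpb at 191, Pparg at 166 and Esrra at 41.2. Ppara (7.89), Ppargc1b (6.17), Ebf2 (5.86), Ppargc1a (3.46), Prdm16 (1.60) and Esrrg (0.478) were all under 10 FPKM. Of the 9 pairs of neighbours in that order, 3 did not overlap in any library, namely Cebpa above Cebpb, Pparg above Esrra, and Esrra above Ppara. Cebpb and Pparg changed places between libraries, with Cebpb higher in 3 of 6, and so did Ppara and Ppargc1b (3 of 6). Ppargc1a exceeded Prdm16, and Prdm16 exceeded Esrrg, within all 6 libraries although their ranges overlapped. Cebpa, Cebpb and Pparg, of the general adipocyte programme, each exceeded Prdm16 and Ebf2, which favour the beige programme, in all 6 libraries. Estimated from the longest coding transcript, Esrrg rested on 12 to 80 fragments a library, where counting alone gives an error of 29.1% at the low end. Prdm16 rested on 83 to 558 fragments and the other 8 on 149 or more.

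**Figure D1:**
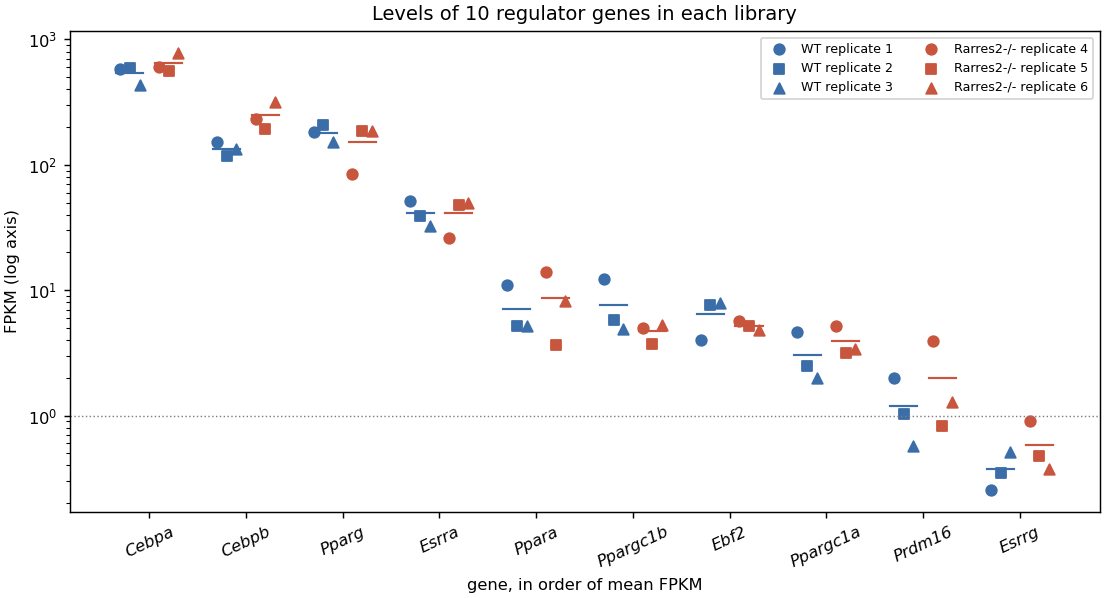
FPKM on a log axis for each of the 10 regulator genes, in order of mean level, with 1 point per library and a line at the mean of each genotype (n = 3). Cebpb is the gene whose 3 Rarres2-/- points all lie above its 3 WT points, and Esrrg lies under the dotted line at 1 FPKM in every library.

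No regulator passed the test for a genotype difference. The limma test on log2(FPKM + 1) covered genes whose mean reached 1 FPKM, which took in 9 of the 10 regulators and left out Esrrg. With Benjamini-Hochberg adjustment over all 11086 genes tested, 0 of 9 had an adjusted p under 0.05, where the share over all tested genes was 0%. At an unadjusted p under 0.05 by limma there was 1 of 9, Cebpb, against 3.93% of tested genes. Cebpb was also the 1 regulator of 10 whose libraries did not overlap between genotypes. Over all tested genes 10.3% did not overlap, 5.81% with Rarres2-/- higher, so 1 in 10 is close to the background. There were 5 tested regulators with a higher mean log2 level in Rarres2-/- and 4 with a lower one, with a median log2 difference of 0.16 against -0.01 for all tested genes. Of the 9 intervals (95%, limma) 8 included 0. These intervals were wide, and for Ppara the interval of the log2 difference ran from -0.94 to 1.27, so changes past 1.5-fold in either direction were within it.

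**Figure D2:**
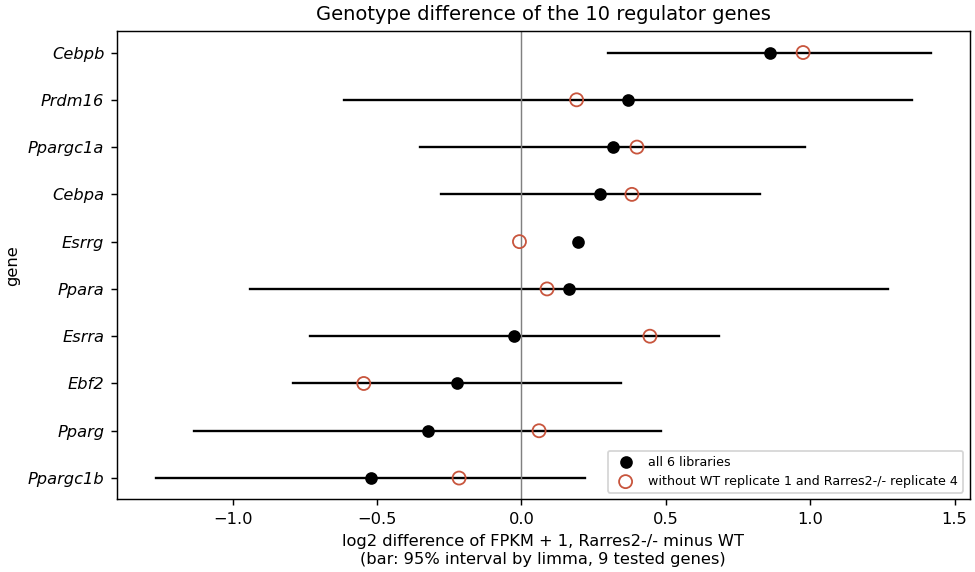
Log2 difference of FPKM + 1, Rarres2-/- minus WT, for the 10 regulator genes, with the 95% interval by limma as a bar for the 9 tested genes. Filled points use all 6 libraries and open points leave out WT replicate 1 and Rarres2-/- replicate 4; the interval of Cebpb alone lies wholly above 0.

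Among the C/EBP factors, Cebpb was higher in Rarres2-/- in every library. This basic leucine zipper factor (chromosome 2, 167688915 to 167690432, GRCm38) is induced by cAMP and hormones at the start of adipocyte formation. It was at 151, 117 and 134 FPKM in WT replicates 1 to 3 and at 233, 191 and 317 FPKM in Rarres2-/- replicates 4 to 6. The lowest Rarres2-/- library exceeded the highest WT library, and the spread was wider in Rarres2-/-. The means were 134 ± 17.0 and 247 ± 64.2 FPKM (SD, n = 3 each), 1.85 times higher in Rarres2-/-. The log2 difference was 0.86 (SE 0.235, interval 0.30 to 1.42), with an unadjusted p of 0.00846 and an adjusted p of 0.999 by limma. It ran from 0.66 to 1.03 when any 1 library was left out, and was 0.98 without WT replicate 1 and Rarres2-/- replicate 4. Cebpd, which acts beside Cebpb in early adipocyte formation, was also higher in every Rarres2-/- library. It had WT values of 9.95, 17.0 and 30.8 FPKM, and Rarres2-/- values of 38.2, 50.6 and 41.7 FPKM, a log2 difference of 1.26 (SE 0.373) with an adjusted p of 0.999 by limma. Cebpa (chromosome 7, 35119293 to 35121928), the C/EBP of the mature adipocyte, read 581, 593 and 435 FPKM in the WT libraries, against 604, 563 and 778 FPKM in the Rarres2-/- libraries. Its genotypes overlapped, and WT replicate 3 was lowest and Rarres2-/- replicate 6 highest. This gave a log2 difference of 0.27 (SE 0.232, interval -0.28 to 0.82), which was 0.13 without either WT replicate 3 or Rarres2-/- replicate 6.

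The sequence just before the start of Cebpb is printed because Cebpb had the clearest genotype difference of the 10 genes and is a cAMP-induced gene. It covers the 250 bases before the RefSeq start on GRCm38.p6, chr2:167688665-167688914, plus strand, with the CRE half-site TGACG, on either strand, in capitals.
Cebpb: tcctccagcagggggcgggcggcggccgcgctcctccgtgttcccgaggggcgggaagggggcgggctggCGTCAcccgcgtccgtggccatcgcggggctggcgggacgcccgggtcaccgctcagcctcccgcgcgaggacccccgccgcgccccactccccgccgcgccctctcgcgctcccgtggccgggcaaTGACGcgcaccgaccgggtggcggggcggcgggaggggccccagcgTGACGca
The half-site occurred at positions -180 (minus strand), -53 and -7, where -1 is the last base before the start. It stood in 17.8% of the same windows of all 32851 promoter entries and in 3 of the 13 windows of the 8 regulators with an entry, 1 each of Cebpb, Ppargc1a and Ppara. The full palindrome TGACGTCA, which holds that half-site on both strands, stood in 1.55% of entries and in none of the 13. Ppargc1b and Ebf2 had no entry.

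PPARγ is the nuclear receptor without which adipocytes do not form, and its gene Pparg (chromosome 6, 115360879 to 115490404) was high in 5 libraries. It held 181, 210 and 151 FPKM in WT replicates 1 to 3, against 84.4, 186 and 185 in Rarres2-/- replicates 4 to 6. Rarres2-/- replicate 4 lay below all others, and Rarres2-/- replicates 5 and 6 lay within the WT range. The means were 181 ± 29.4 and 152 ± 58.4 FPKM (SD, n = 3 each), and the log2 difference of -0.32 (SE 0.340) became 0.05 without Rarres2-/- replicate 4. PPARα, the receptor that drives fatty acid oxidation genes, is encoded by Ppara (chromosome 15, 85734910 to 85806851). It had WT values of 11.1, 5.18 and 5.16 FPKM, and Rarres2-/- values of 14.0, 3.64 and 8.27 FPKM. The highest values were in WT replicate 1 and Rarres2-/- replicate 4, and the lowest was in Rarres2-/- replicate 5. Its log2 difference of 0.16 (SE 0.465) became -0.24 without Rarres2-/- replicate 4 and 0.61 without Rarres2-/- replicate 5. Without both WT replicate 1 and Rarres2-/- replicate 4 it was 0.09.

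Pparg has 3 RefSeq starts in the promoter table, and the window before the third is printed because C/EBP factors are known to act on Pparg in adipocytes. It is chr6:115421816-115422065 on GRCm38.p6, plus strand, 250 bases, with the C/EBP motif TTGCNNAA, on either strand, in capitals.
Pparg: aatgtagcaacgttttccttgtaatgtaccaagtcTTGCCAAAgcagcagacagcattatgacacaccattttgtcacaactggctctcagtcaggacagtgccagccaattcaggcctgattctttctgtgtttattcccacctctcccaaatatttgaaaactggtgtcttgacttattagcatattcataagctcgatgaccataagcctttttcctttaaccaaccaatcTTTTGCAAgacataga
The motif began at positions -215 (plus strand) and -16 (minus strand). It was present in 9.56% of all promoter entries and in 2 of the 13 windows of the regulators, 1 of Pparg and 1 of Esrrg. The windows before the other 2 starts of Pparg each held the nuclear receptor half-site AGGTCA, at -28 and -9, found in 14.0% of entries on either strand and in no other regulator. A match of letters is a description of the window and not a measured binding site. Ppara is shown for its CRE half-site (capitals, position -222), from chr15:85735526-85735775, plus strand.
Ppara: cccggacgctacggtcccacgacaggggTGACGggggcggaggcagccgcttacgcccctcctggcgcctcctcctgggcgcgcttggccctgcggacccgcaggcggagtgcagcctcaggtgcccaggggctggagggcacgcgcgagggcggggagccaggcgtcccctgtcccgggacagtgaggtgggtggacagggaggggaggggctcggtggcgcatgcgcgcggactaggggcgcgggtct

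The PGC-1 coactivator genes had mean differences of opposite sign, neither past the test. Ppargc1a (chromosome 5, 51454249 to 52115853), the cold-induced coactivator, read 4.61, 2.47 and 1.99 FPKM in the WT libraries, against 5.21, 3.13 and 3.37 FPKM in the Rarres2-/- libraries. The genotypes overlapped through WT replicate 1, and both other WT libraries lay below every Rarres2-/- library. The log2 difference was 0.32 (SE 0.280, interval -0.35 to 0.98). It was 0.58 without WT replicate 1 and 0.13 without either WT replicate 3 or Rarres2-/- replicate 4. Ppargc1b held 12.2, 5.79 and 4.93 FPKM in WT replicates 1 to 3, against 5.03, 3.73 and 5.31 in Rarres2-/- replicates 4 to 6. WT replicate 1 was far above the rest, and the other WT libraries overlapped with Rarres2-/-. The log2 difference was -0.52 (SE 0.313, interval -1.27 to 0.22), and it ran from -0.75 without WT replicate 3 to -0.17 without WT replicate 1.

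Transcription of Ppargc1a is the textbook entry point of the cold signal through the CRE. For this reason the Ppargc1a window among the promoter entries is shown. It is chr5:51567726-51567975 on GRCm38.p6, minus strand, 250 bases written 5′ to 3′ along the gene, with the CRE half-site in capitals.
Ppargc1a: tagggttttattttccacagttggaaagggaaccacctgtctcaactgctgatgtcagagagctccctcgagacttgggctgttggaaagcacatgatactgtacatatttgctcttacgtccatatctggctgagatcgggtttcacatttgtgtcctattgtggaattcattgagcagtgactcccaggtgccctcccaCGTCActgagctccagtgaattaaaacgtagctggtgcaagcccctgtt
The window held the half-site once, on the opposite strand, at -49. This window lies inside the locus, whose 5′ end on the minus strand is at 52115853, so it precedes an internal start. Whether that start was in use in this fat, or is the one the cold signal acts on, was not tested. These letters cover a short stretch and say nothing of elements outside it, such as those before other starts of Ppargc1a.

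Within each library the balance of related regulators can be read as a ratio, which library scaling leaves nearly untouched. The FPKM of Ppargc1a divided by that of Ppargc1b was 0.376, 0.426 and 0.403 in WT and 1.04, 0.837 and 0.636 in Rarres2-/-. The WT values lay close together and all Rarres2-/- values lay above them. On the log2(FPKM + 1) scale the ratio was -1.07 ± 0.151 in WT and -0.23 ± 0.287 in Rarres2-/- (SD, n = 3 each). The difference of 0.84 had an exact permutation p of 0.1 (two-sided), the smallest that 3 against 3 libraries allow, and 0.2 adjusted over the 4 pairs compared. It stayed between 0.70 and 0.99 when any 1 library was left out and was 0.62 without both WT replicate 1 and Rarres2-/- replicate 4. Cebpa divided by Cebpb was 3.85, 5.08 and 3.25 in WT and 2.59, 2.94 and 2.45 in Rarres2-/-. All Rarres2-/- values were below all WT values, and the log2 ratio differed by -0.59 (exact permutation p = 0.1, two-sided; 0.2 adjusted over the 4 pairs). The log2 ratio of Pparg to Ppara differed by -0.49 and that of Esrra to Esrrg by -0.22, both with overlapping libraries (exact permutation p = 0.7 each, two-sided). Pparg exceeded Ppara by 6.02 times in Rarres2-/- replicate 4 and by 16.4 to 51.1 times in the other libraries. With 3 libraries a genotype this exact test cannot give a p under 0.1.

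**Figure D3:**
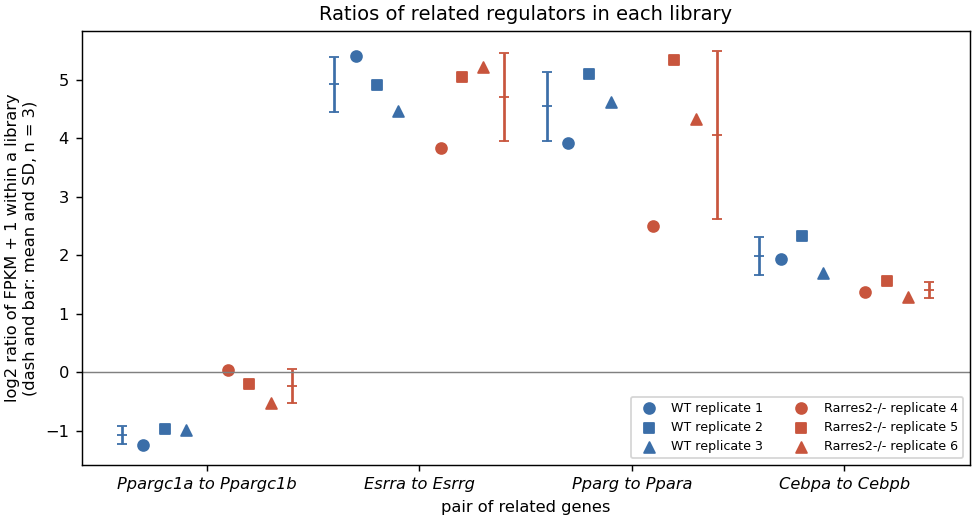
Log2 ratio of FPKM + 1 of 4 pairs of related regulators within each library, with the mean and SD of each genotype (n = 3) beside the points. The Ppargc1a to Ppargc1b ratio is higher and the Cebpa to Cebpb ratio lower in all 3 Rarres2-/- libraries, and the other pairs overlap.

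The ERR genes, whose orphan nuclear receptors carry PGC-1 to mitochondrial genes, had libraries that overlapped between genotypes. Esrra (chromosome 19, 6910977 to 6922048, where Trmt112 overlaps it) had WT values of 51.9, 39.2 and 32.4 FPKM, and Rarres2-/- values of 26.1, 47.9 and 49.9 FPKM. Rarres2-/- replicate 4 was the lowest of all libraries, and Rarres2-/- replicates 5 and 6 lay above WT replicates 2 and 3 but below WT replicate 1. The log2 difference was -0.02 (SE 0.297), 0.27 without Rarres2-/- replicate 4, and 0.44 without that library and WT replicate 1 (adjusted p = 0.116 by limma). Esrrg (chromosome 1, 187608510 to 188214885), an ERR of highly oxidative tissues, read 0.256, 0.346 and 0.517 FPKM in the WT libraries, against 0.903, 0.474 and 0.372 FPKM in the Rarres2-/- libraries. Rarres2-/- replicate 4 was highest and the other libraries overlapped, and a two-sided exact permutation test gave p = 0.4. Rarres2-/- replicate 4 thus had the lowest Esrra and the highest Esrrg, and its Esrra to Esrrg ratio of 28.9 was the lowest of the 6, against 62.7 to 203.

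PRDM16 and EBF2, the factors that favour beige over white identity, had mean differences of opposite sign, neither past the test. Prdm16 (chromosome 4, 154316122 to 154637360) held 1.98, 1.03 and 0.577 FPKM in WT replicates 1 to 3, against 3.91, 0.827 and 1.29 in Rarres2-/- replicates 4 to 6. Rarres2-/- replicate 4 was highest and WT replicate 1 next, and the other 4 libraries were at 1.29 FPKM or less. The log2 difference of 0.37 (SE 0.414) was -0.05 without Rarres2-/- replicate 4 and 0.66 without Rarres2-/- replicate 5. Ebf2 (chromosome 14, 67233292 to 67430952) had WT values of 4.01, 7.62 and 7.84 FPKM, and Rarres2-/- values of 5.71, 5.17 and 4.79 FPKM. WT replicates 2 and 3 lay above all Rarres2-/- libraries, and WT replicate 1 lay below them. The log2 difference was -0.22 (SE 0.239). Leaving out WT replicate 1 made it -0.49, and leaving out replicate 2 or 3 of WT made it -0.10 or -0.08. Ebf2 is also expressed in adipose progenitors, whose summed markers were lowest in WT replicate 1 and highest in WT replicates 2 and 3, as Ebf2 was. The part of those markers in this value was not tested.

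The regulators Ppargc1a, Ppara and Prdm16 shared a pattern across libraries that was not that of genotype. All 3 had their 2 highest values in WT replicate 1 and Rarres2-/- replicate 4, which was the case for 13.7% of all tested genes. Over the 6 libraries Prdm16 was most like Ppargc1a (Pearson r of log2(FPKM + 1) 0.91, Spearman rho 0.94), with r = 0.76 over the 4 libraries left without those farthest from the median of Prdm16. Ppara was also most like Prdm16 (r = 0.90, rho 0.94, and 0.91 without the libraries farthest from its median). Esrra and Pparg were most like each other (r = 0.82, rho 0.43), but r was -0.99 without WT replicate 3 and Rarres2-/- replicate 4, so that likeness rests on these libraries. Cebpa and Cebpb were most like each other (r = 0.72, rho 0.60), with r = 0.05 without Rarres2-/- replicate 6 and WT replicate 3. The closest to Ppargc1b was Ppara (r = 0.53, and -0.39 without the libraries farthest from its median), the closest to Esrrg was Prdm16 (0.52, and -0.88 likewise), and the closest to Ebf2 was Esrrg (0.26, and 0.91 likewise). These values describe 45 pairs over 6 libraries that share tissue composition and scaling. The endothelial markers given above had the same 2 libraries on top as Ppargc1a, Ppara and Prdm16, and the part of endothelial or muscle RNA in these 3 genes was not tested. Rarres2-/- replicate 4 held the highest or lowest value of 6 of the 10 regulators, against 46.7% of tested genes, and WT replicate 1 of 4 of 10, against 52.9%.

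**Figure D4:**
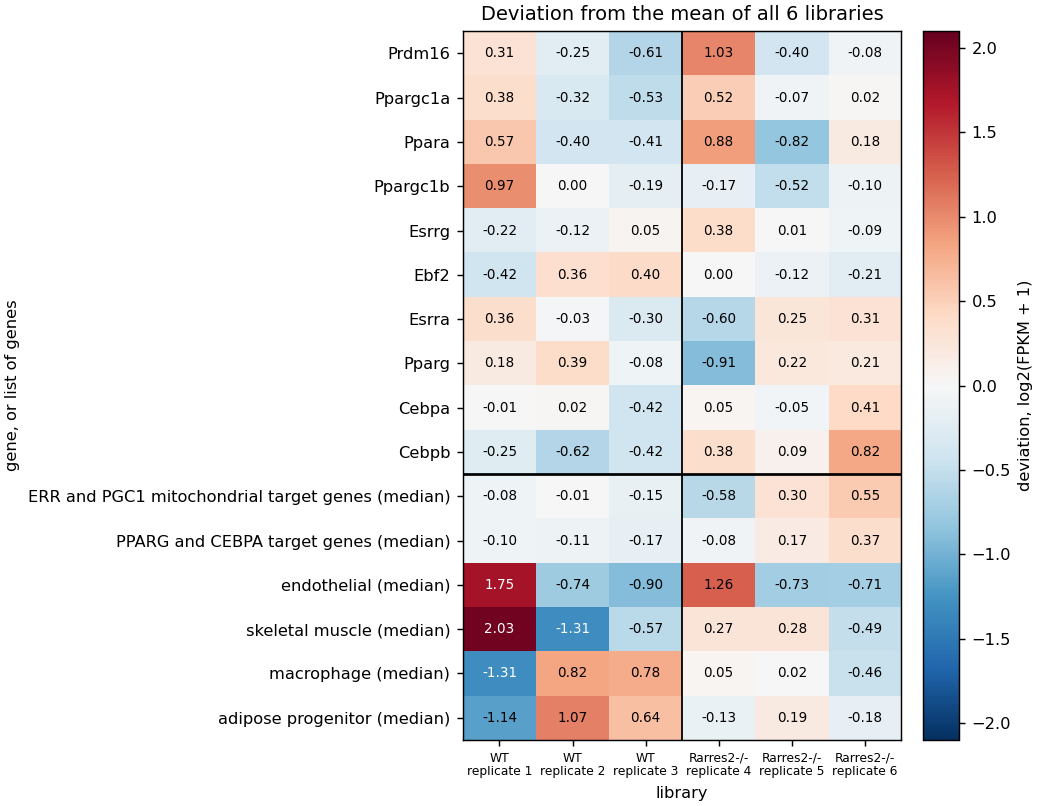
Deviation of each regulator from its mean over the 6 libraries on the log2(FPKM + 1) scale, and below the line the median deviation of 2 target lists and 4 cell type marker lists. Prdm16, Ppargc1a and Ppara are above their mean in WT replicate 1 and Rarres2-/- replicate 4, as are the endothelial markers, and Esrra, Pparg and the mitochondrial targets are lowest in Rarres2-/- replicate 4.

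Genes that these regulators control, taken from lists of known targets, mostly had higher means in Rarres2-/-, though none passed the test. The counts are of tested genes by direction of the mean log2 level, where 48.6% of all tested genes were higher and the median was -0.01. Cell type markers differed beside them: 5 of 6 white adipocyte markers were higher in Rarres2-/- and 0 of 7 macrophage markers. Without WT replicate 1 and Rarres2-/- replicate 4 the median log2 difference was -0.96 for macrophage and -0.97 for adipose progenitor markers, with none of either higher, and 0.32 for white adipocyte markers. The part of cell composition in the target lists was not tested. Of 13 tested PPARα target genes, 13 were higher and 0 called, with a median log2 difference of 0.26. The count was 10 to 13 over the 4 scalings tried, lowest when libraries were scaled to white adipocyte markers, and 11 without WT replicate 1 and Rarres2-/- replicate 4. Pdk4, a kinase that holds glucose carbon back from mitochondria, read 22.4, 17.0 and 59.1 FPKM in the WT libraries, against 216, 68.9 and 97.5 FPKM in the Rarres2-/- libraries, above WT in every library (log2 difference 1.96, SE 0.565, adjusted p = 0.999 by limma). Acot2, a mitochondrial thioesterase, had a log2 difference of 0.53 with overlapping libraries. Of 18 PPARγ and C/EBPα targets, 16 were higher and 0 called, with a median of 0.25. Acsl1, which activates fatty acids, averaged 604 ± 50.6 FPKM in WT against 960 ± 109 in Rarres2-/- (SD, n = 3 each), and Plin1, a lipid droplet coat protein, had a log2 difference of 0.51. Retn and Cfd were the 2 lower members, and Cfd was lower in every Rarres2-/- library, with a log2 difference of -0.66. Leaving out WT replicate 1 and Rarres2-/- replicate 4 left 17 of 18 higher with a median of 0.47, where 54.0% of all tested genes were higher. The median was 0.12 without WT replicate 3, with 15 of 18 higher, and 0.18 without Rarres2-/- replicate 6, with 13 of 18 higher. Scaling to white adipocyte markers also left 13 of 18, but all 6 of those markers belong to this list.

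The mitochondrial targets of ERRα and PGC-1 were, like Esrra, lowest in Rarres2-/- replicate 4. Of 12 tested, 9 were higher in Rarres2-/- and 0 called (median 0.16), and no member separated the genotypes. In Rarres2-/- replicate 4, where Esrra was lowest, 11 of the 12 also had their lowest value, against 28.5% of all tested genes. The white adipocyte markers were mixed there. Fabp4, Cfd and Adipoq, 3 of the 6, had their lowest value in that library, while Plin1 was highest there and Cidec and Lipe exceeded every WT library. Their sum, carried by Fabp4 and Cfd, was 38657 FPKM against 55096 to 70153 in the others, but their median deviation of -0.10 was not the lowest of the 6 libraries. The part of adipocyte RNA in the values of Esrra, Pparg and these targets was not tested. In that library the median deviation from the mean of all libraries was -0.58, and in Rarres2-/- replicates 5 and 6 it was 0.30 and 0.55. Without WT replicate 1 and Rarres2-/- replicate 4, 12 of 12 were higher (median 0.53), but without Rarres2-/- replicate 6 only 4 of 12 were (median -0.09). Etfdh and Idh3a, enzymes of electron transfer and the TCA cycle, had log2 differences of 0.42 and 0.31. Of 11 thermogenic genes, 8 were higher and 0 called (median 0.18), and 4 (Ucp1, Dio2, Otop1 and Gyk) did not overlap between genotypes, all higher, where 5.81% of all tested genes were of that kind. Without WT replicate 2 only 6 of 11 were higher (median 0.03), and without WT replicate 1 and Rarres2-/- replicate 4 it was 11 of 11 (median 0.41). Otop1 (log2 difference 0.76) and Gyk (0.65) had the smallest p. The 3 lower ones were Cidea, Cox8b and Cox7a1, and the last of them was at 60.9 FPKM in Rarres2-/- replicate 4 and 149 to 346 FPKM elsewhere.

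Of 21 coregulators and partners, 8 were higher, 13 lower and 0 called, with a median of -0.09, which was 0.01 without Rarres2-/- replicate 6. In 2 of the 21, or 9.52%, the genotypes did not overlap, near the 10.3% of all tested genes, and both, Nrip1 and Tle3, were higher in Rarres2-/-. Nrip1 (RIP140), a corepressor of nuclear receptors, held 5.50, 3.58 and 4.52 FPKM in WT replicates 1 to 3, against 15.3, 6.79 and 7.33 in Rarres2-/- replicates 4 to 6, a log2 difference of 0.89 (SE 0.305). Tle3, which also aids PPARγ and counters PRDM16, had WT values of 14.0, 13.9 and 12.8 FPKM, and Rarres2-/- values of 40.9, 17.0 and 22.4 FPKM, a log2 difference of 0.84 (SE 0.302). For both genes Rarres2-/- replicate 4 was highest, and the adjusted p was 0.999 by limma. Without that library and WT replicate 1 the log2 differences were 0.68 and 0.52. The coactivator genes in the list, such as Ncoa1, Med1 and Crebbp, had overlapping libraries.

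Other adipocyte and beige transcription factors were divided, with 8 of 17 tested higher, 9 lower and 0 called (median -0.01). Beside Cebpd, Irf4, a PGC-1α partner in thermogenic fat, read 2.33, 6.70 and 6.63 FPKM in the WT libraries, against 15.5, 8.95 and 7.12 FPKM in the Rarres2-/- libraries, and the genotypes did not overlap. Its log2 difference of 0.92 was 0.23 without WT replicate 1 and Rarres2-/- replicate 4. Tbx15, a T-box factor of adipose tissue, was lower in every Rarres2-/- library, with WT values of 8.35, 9.73 and 8.71 FPKM and Rarres2-/- values of 5.67, 8.14 and 6.66 FPKM (log2 difference -0.35). Zfp423 was higher in each of them, with a log2 difference of 0.15. Genes that carry the cold signal to Ppargc1a were 6 higher and 6 lower of 12, with 0 called. Of these, Crtc3 was lower in every Rarres2-/- library (log2 difference -0.13). Prkar2b, which encodes a regulatory part of protein kinase A, averaged 264 ± 49.0 FPKM in WT against 429 ± 38.3 in Rarres2-/- (SD, n = 3 each), and its genotypes did not overlap. Adcy3, an adenylyl cyclase, read 2.60, 5.53 and 5.94 FPKM in the WT libraries, against 10.7, 7.92 and 6.27 FPKM in the Rarres2-/- libraries. Its log2 difference of 0.74 was 0.26 without WT replicate 1 and Rarres2-/- replicate 4. Adrb3, the β3-adrenergic receptor, overlapped, with a WT range of 64.7 to 127 FPKM and a Rarres2-/- range of 47.9 to 110.3 FPKM. Regulators of mitochondrial genes had small differences, with 4 of 7 tested higher and 0 called. The count higher was 2 of 7 with scaling to white adipocyte markers and 6 of 7 with quantile normalization. Tfb2m had a log2 difference of 0.16 with overlapping libraries. Yy1 was lower in every Rarres2-/- library, by a small log2 difference of -0.10.

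**Figure D5:**
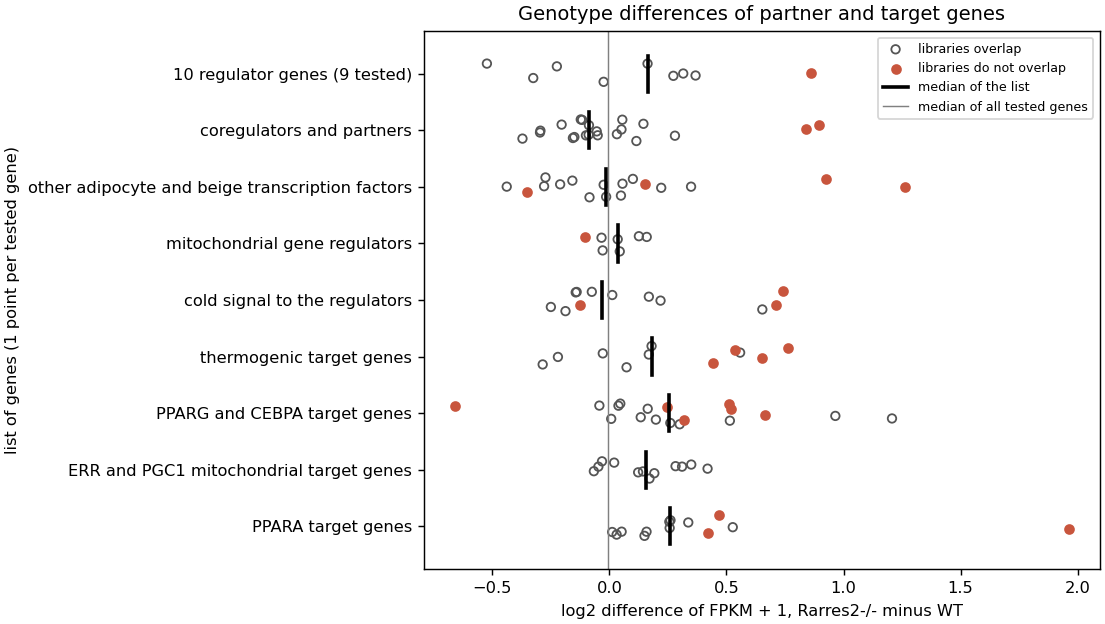
Log2 difference of FPKM + 1, Rarres2-/- minus WT, with 1 point for each tested gene of the regulator set and of 8 lists of partner and target genes, and a bar at each list's median. Filled points are genes whose libraries do not overlap; all 13 tested PPARA targets lie above 0 (10 do when libraries are scaled to white adipocyte markers), and the coregulators centre just below it.

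Weighting libraries by how well they fit their group changed which regulators passed. With limma's array weights 2 of 9 regulators were called, Cebpb (log2 difference 0.69, adjusted p = 0.0323) and Ebf2 (-0.48, adjusted p = 0.0301), where 13.7% of all tested genes were called. The weight was 0.192 for WT replicate 1, 0.179 for Rarres2-/- replicate 4, 0.736 for Rarres2-/- replicate 6 and 6.19 for Rarres2-/- replicate 5, so the Rarres2-/- value of that fit is mostly replicate 5. The estimate of the weights stopped before its convergence tolerance. Without WT replicate 1 and Rarres2-/- replicate 4, 0 of 9 regulators were called, where 0.613% of tested genes were.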

How the data were processed

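RNA-seq of inguinal fat from 3 WT and 3 Rarres2-/- libraries was used. The deposited values are FPKM, 1 table per library, per the file headers. WT replicate 3 is the exception: its value column carries a sample name, and it was read as FPKM because its genes and scale match the others. Bowtie and the mm10 build are named in the submitters' processing notes. The sources used here do not give the FPKM program, annotation, strand or handling of shared reads, so reads of overlapping genes, which 5 of the 10 loci have in RefSeq, may be split unevenly. FPKM removes depth, and a few very abundant RNAs can move all other values. Snord2 held 62.1% of the named FPKM sum in WT replicate 1. FPKM divides by length, so this is not its share of fragments and does not show how far other values moved. Rows without a symbol (737, 0.793% to 4.91% of the sum) stayed out. Libraries were compared in pairs, and none shared an equal value above 0.

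The 11086 genes whose mean reached 1 FPKM were tested two-sided on log2(FPKM + 1), where changes of low genes come out too small. The model had genotype as its only term and was fitted with limma 3.58.1 (R 4.3.3), using lmFit and a trended eBayes. Adjusted p-values are Benjamini-Hochberg over all tested genes, with 0.05 as the threshold. Ratios of related genes were compared by exact permutation. Fragments per gene were estimated from the value of 1 fragment in genes with a single GENCODE M21 transcript and the longest coding transcript of each regulator, and cover counting error only. Coordinates and promoter windows are from RefSeq on GRCm38.p6, the assembly of mm10.

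The 10 regulators and all lists were chosen with earlier results of these data known. Genes named are the regulators, Rarres2, the 2 with the smallest p in each list, and for each regulator the most alike other regulator. Named after their values were seen were Zic1, Lhx8, Epsti1, Mpzl2, Adipoq, Fabp4, Cidec, Lipe, Ucp1, Dio2, Tbx15 and Zfp423. So were Trmt112, Snord4a, Crtc3, Adrb3, Ncoa1, Med1, Crebbp, Retn, Cfd, Cidea, Cox8b, Cox7a1 and Snord2. Perm1, Adgre1 and Eva1 of the lists were matched through other symbols of the same genes. The fit was tested on simulated data with independent noise for each gene, which do not carry the patterns that genes shared across these libraries. Alternatives were 4 scalings, a pseudocount of 0.1, testing without a filter or only genes at 5 FPKM in 3 libraries, robust empirical Bayes, array weights, a threshold of 0.1 and leaving out libraries.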

Additional observations from a re-analysis of the deposited data

How the results depend on the processing

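No paired analysis was possible because the sample numbers 1 to 3 and 4 to 6 are not shared between genotypes. The count of genes called by limma was 0 with all 6 libraries and stayed 0 with quantile normalization, a pseudocount of 0.1, no filter and robust empirical Bayes; 436 genes had an unadjusted p under 0.05. It was 1, Rarres2, when libraries were scaled to their upper quartile, to white adipocyte markers or to a total that leaves out the 20 most abundant genes, and with a filter of 5 FPKM in 3 libraries and an adjusted p under 0.1. It was 1524 with array weights and 68 without WT replicate 1 and Rarres2-/- replicate 4, and with any 1 library left out it was 0 to 1 (Rarres2 without Rarres2-/- replicate 5, Snord4a without Rarres2-/- replicate 6). The count of regulators called was 0 under every alternative except array weights, where it was 2. With array weights the log2 differences of Esrra (0.37), Ppara (-0.30) and Pparg (0.0106) changed sign, and without WT replicate 1 and Rarres2-/- replicate 4 those of Esrra (0.44), Esrrg (-0.00706) and Pparg (0.0608) and the Esrra to Esrrg ratio (0.45) did. The cause was not tested. With any 1 library left out the log2 difference ran from -0.19 to 0.27 for Esrra, -0.24 to 0.61 for Ppara, -0.52 to 0.05 for Pparg and -0.0538 to 0.66 for Prdm16. The log2 ratio difference ran from -0.48 to 0.21 for Esrra to Esrrg and from -1.13 to 0.29 for Pparg to Ppara. Ppargc1a, Ppargc1b, Ebf2, Cebpa, Cebpb and the ratios of Ppargc1a to Ppargc1b and Cebpa to Cebpb kept their direction under every alternative run. The adjusted p of Cebpb ran from 0.0323 to 1 over the alternatives and that of Ebf2 from 0.0301 to 1. With all 6 libraries, 3 a genotype, not even Rarres2 was called (means 517 FPKM in WT and 2.67 FPKM in Rarres2-/-, adjusted p = 0.0597 by limma). The absence of a call therefore does not exclude a difference of a regulator, large or small. With as few as 12 fragments for Esrrg, small differences in the low genes were not detectable.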
